A study of Solanum tuberosum with 8 samples.

Results

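This report covers X2 potato tubers 12 h after cutting, set against the 0 h tubers of the same cultivar. X2 (Xingjia 2) is a tetraploid potato cultivar, and RNA-Seq was run on tuber blocks cut radially from the epidermis to the pith. The 12 h group holds 3 libraries of tissue sampled 12 h after cutting, and the 0 h group holds 3 libraries of tissue taken at cutting, which serve as the control. Both groups carry the same wound and the labels name no agent for either, so time after cutting is what differs. Each library is described as a biological replicate mixed from 3 tubers, so p-values measure the spread between pooled libraries. Levels are given as FPKM, which scales the fragments of each gene to its length and to library depth. Of 42667 genes in the table, 19344 averaged 0.5 FPKM or more across the 6 libraries and were compared, and 13898 were listed at 0 in all 6. Fold changes (log2FC, 12 h minus 0 h) are on log2(FPKM + 0.1), a scale that understates the change of low genes.

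A cut tuber closes its surface in stages. The cells at the cut first lay down lignin-like phenolics and suberin, a polyester of fatty acids and phenolics that seals the wound, and later resume cell division to build a new periderm. Division begins with the licensing and copying of DNA and the supply of histones, and ends with mitosis and the laying of a new cell plate. Phenylpropanoids, made from phenylalanine, feed the lignin, the suberin phenolics and the flavonoids.

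At 12 h, 7076 of the 19344 genes (36.6%) were called higher and 3384 (17.5%) lower, where a call needed a |log2FC| of 1 or more together with a limma p of 0.01 or less before adjustment. Large changes were mostly increases, since 1738 genes had a log2FC of 3 or more and 358 of -3 or less. The largest Benjamini-Hochberg adjusted p among the called genes was 0.0131 (limma). Over the whole table, 124 genes had 3 reads or fewer in every 0 h library and an FPKM of 1 or more in every 12 h library, whereas 23 genes showed the opposite.

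The abundant transcripts of the fresh tuber were mostly lower at 12 h. The 100 genes most abundant at 0 h held 6.97 to 7.26% of all FPKM in the 12 h libraries, against 24.6 to 25.3% in the 0 h libraries, and 73 of them were called lower and 1 higher. These genes were picked by their 0 h values, which favours a fall. The 100 most abundant genes of each library itself held 15.0069 to 15.3% of FPKM at 12 h and 24.7 to 25.5% at 0 h. The median log2FC over all genes tested was 0.47. With median-of-ratios size factors, a scaling that takes the typical gene as constant, this median was 0.03, a shift of -0.44. The calls then became 5301 higher (27.4%) and 4873 lower (25.2%) of 19315 genes, so that 52.1% of calls were increases, against 67.6% on FPKM as deposited. This scaling shifts all genes nearly alike. The 12 h libraries held 32621137 to 44921591 reads on genes and the 0 h libraries 29746314 to 41921675, so that 3 reads on a 1 kb gene amounted to 0.0668 to 0.101 FPKM, a limit that covers counting error only.

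Genes of the machinery that copies DNA were mostly higher at 12 h. Of 15 genes with a DNA replication description, 13 were abundant enough to test and each was called higher, beside 36.6% of all genes, with a median log2FC of 6.18 (5.85 with size factors) against 0.47 for all genes tested. This and the later groups formed by description draw mainly on a table of large changes. In it the study listed genes with a log2FC of at least 6 or at most -6 in some comparison of these samples. The phenylalanine ammonia-lyase, polyphenol oxidase and peroxidase lists and the transcription factor families come from other lists of genes that the study reported as changed in these samples. None of these counts and medians is independent evidence of a direction or of the size of a change. The filter also leaves out members that were low in both groups, and a member near 0 at 0 h could pass it only through its 12 h values. DNA polymerase delta and DNA topoisomerase 2 were the members not tested, with at most 0.18 FPKM as their mean at 12 h.

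Among the licensing factors, MCM3 (PGSC0003DMG400008308), a subunit of the helicase ring loaded onto origins, had 31.2, 30.1 and 33.6 FPKM in the 12 h libraries, against 0.299, 0.109 and 0.174 FPKM in the 0 h libraries. MCM5 (PGSC0003DMG400011837), of the same ring, had 30.9, 33.9 and 37.3 FPKM in the 12 h libraries, against 0.305, 0.221 and 0.129 FPKM in the 0 h libraries. Both were below 1 FPKM in every 0 h library and above 30 FPKM in every 12 h library, with a log2FC of 6.80 and 6.78 (standard errors 0.23 and 0.21, limma adjusted p = 3.87e-07 and 3.13e-07). The dUTPase PGSC0003DMG400024725, which keeps uracil out of DNA, had 20.6, 24.6 and 30.3 FPKM in the 12 h libraries, against 0.1499, 0.106 and 0.0363 FPKM in the 0 h libraries. It had the largest log2FC of the replication genes, 7.03 (standard error 0.26, limma adjusted p = 4.82e-07). A further 3 genes were picked after their values were seen, because they act at the same steps. Cdc6 (PGSC0003DMG400030351), which loads the MCM ring, averaged 11.2 ± 1.99 FPKM at 12 h and 0.0921 ± 0.0153 FPKM at 0 h. Origin-recognition complex subunit 6 (PGSC0003DMG400003384) averaged 12.1 ± 2.35 FPKM at 12 h and 0.0192 ± 0.0173 FPKM at 0 h, and the 70 kDa subunit of replication protein A (PGSC0003DMG400024634), which coats single-stranded DNA, averaged 15.9 ± 2.18 FPKM at 12 h and 0.0674 ± 0.05003 FPKM at 0 h. The libraries of both groups stood apart in each of these genes.

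The E2F-DP family, some of whose members switch on genes of the DNA synthesis phase, had 8 genes, all tested. Of these, 6 were called higher and 1 lower (75.0% and 12.5%, beside 36.6% and 17.5% of all genes). The E2F gene described next is also one of the DNA replication genes above. The E2F gene PGSC0003DMG402024469 had 4.31, 3.01 and 4.62 FPKM in the 12 h libraries, against 0, 0.00895 and 0.0214 FPKM in the 0 h libraries. Only 3 reads fell on it over the 0 h libraries, against 1249 at 12 h, and the ratio of depth-scaled reads was 374 (95% counting interval 128 to 1817). PGSC0003DMG401005482 of the same family moved the other way, with 1.93, 1.61 and 2.11 FPKM in the 12 h libraries, against 8.14, 10.9 and 9.39 FPKM in the 0 h libraries (log2FC -2.27, standard error 0.15, limma adjusted p = 5.42e-06). A D-type cyclin of subgroup 3 (PGSC0003DMG400008001), a class that drives entry into the cycle, averaged 1.57 ± 0.2899 FPKM at 12 h and 0.0491 ± 0.0259 FPKM at 0 h, with a log2FC of 3.49 (standard error 0.26, limma adjusted p = 8.94e-06).

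Histones, the proteins that package new DNA, rose together with the replication genes. All 12 genes described as histone H3.2 or H4 were tested and called higher, beside 36.6% of all genes. Their median log2FC was 5.66 (5.27 with size factors). The summed FPKM of the 12 genes was 356 to 383 in the 12 h libraries and 3.56 to 5.51 in the 0 h libraries. Histone H3.2 PGSC0003DMG400001119 had 74.3, 77.7 and 91.99 FPKM in the 12 h libraries, against 0.567, 0.112 and 0.2404 FPKM in the 0 h libraries, the largest log2FC of the described genes at 7.80 (standard error 0.37, limma adjusted p = 1.2e-06). Histone H4 PGSC0003DMG400023523 had 29.96, 33.5 and 37.3 FPKM in the 12 h libraries, against 0.159, 0.594 and 0.135 FPKM in the 0 h libraries (log2FC 6.59, standard error 0.39, limma adjusted p = 3.04e-06). Histone genes are nearly identical copies, and the counting could split reads between them, so the values of single copies are uncertain. The chromatin protein MNB1B (PGSC0003DMG400025304), of the high mobility group family, had 22.03, 22.7 and 26.5 FPKM in the 12 h libraries, against 0.0439, 0 and 0.0186 FPKM in the 0 h libraries. With 3 reads over the 0 h libraries its ratio of depth-scaled reads was 1278 (95% counting interval 437 to 6199).

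Genes of mitosis and cytokinesis were mostly still low at 12 h. Of 31 such genes only 6 passed the FPKM filter. Of these, 5 were called higher and 1 lower, beside 36.6% and 17.5% of all genes. The other 25 had a mean of at most 0.71 FPKM at 12 h. The cyclin A genes Novel01245 (SolTub_3.0, chromosome 12, 56343279 to 56345466, plus strand) and PGSC0003DMG400021519 were among those higher, with 3.63 and 2.17 FPKM as means at 12 h, against 0.00501 and 0.00400 FPKM at 0 h. Polychome (PGSC0003DMG402023713), which in Arabidopsis restrains the anaphase-promoting complex, averaged 1.93 ± 0.0745 FPKM at 12 h and 0.00404 ± 0.006998 FPKM at 0 h. The one called lower, Novel02936, described as condensin complex subunit 1-like (chromosome 7, 29593194 to 29601570, plus strand), had 0.0416, 0.0907 and 0 FPKM in the 12 h libraries, against 6.97, 8.47 and 9.803 FPKM in the 0 h libraries. It moved against the rest of the list, with 3 reads at 12 h and 485 at 0 h and a read ratio of 0.00556 (95% counting interval 0.00114 to 0.0163).

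The same genes were set against the other hours of X2, with 2 libraries each at 4 h and 24 h, in one limma fit over 10 X2 libraries. Differences are 12 h minus the other hour on log2(FPKM + 0.1). Over all 19844 genes tested, 2536 (12.8%) were called higher and 1800 (9.07%) lower at 12 h than at 4 h, and 910 (4.59%) higher and 1346 (6.78%) lower at 12 h than at 24 h. These contrasts share the 12 h libraries. The filter of this fit also counts the 4 h and 24 h libraries, so a gene that passed only through one of those hours had to differ from it. List counts against the other hours are therefore given for genes that also passed the filter of the 12 h and 0 h libraries, a choice that in turn favours genes high at 12 h. Of the replication genes, 13 of 13 were higher at 12 h than at 4 h, with a median difference of 3.92, and 8 of 13 were higher at 12 h than at 24 h, with a median of 1.45. All 12 histone genes were higher at 12 h than at 4 h (median 4.75), and against 24 h none was higher and 5 were lower at 12 h. Of the 6 mitosis genes, 5 were higher and 1 lower at 12 h than at 4 h, and 2, both cyclin A genes, were higher and 2 lower at 12 h than at 24 h. A further 21 mitosis genes entered this fit only with the other hours, each with its highest mean at 24 h. All 21 were lower at 12 h than at 24 h, a direction that the filter largely fixed, and against 4 h 3 of them were higher and 1 lower at 12 h.

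Values of 5 mitosis genes and the topoisomerase, picked after they were seen, are given as a description of the gap to 24 h, since all of these genes passed the filter only through the 24 h libraries. Knolle (PGSC0003DMG400016283), in Arabidopsis the syntaxin of the forming cell plate, had 0.122, 0.189 and 0.0561 FPKM in the 12 h libraries, against 17.8 and 25.9 FPKM in the 24 h libraries. Cyclin B2 (PGSC0003DMG400001523), which drives entry into mitosis, had 0.00694, 0.00757 and 0 FPKM in the 12 h libraries, against 6.27 and 9.52 FPKM in the 24 h libraries. The values at 12 h were at the level of a few reads and all lay below both 24 h libraries. The anaphase activator CDC20 (PGSC0003DMG401027032) had 0.171, 0.0178 and 0.0561 FPKM in the 12 h libraries, against 16.3 and 22.7 FPKM in the 24 h libraries. The B2-type cyclin-dependent kinase PGSC0003DMG400010003 had 1.04, 0.522 and 0.563 FPKM in the 12 h libraries, against 25.4 and 31.9 FPKM in the 24 h libraries. A B-type cyclin (PGSC0003DMG400007172) averaged 0.0535 FPKM at 12 h and 18.1 FPKM at 24 h, and DNA topoisomerase 2 (PGSC0003DMG400006793), which untangles the copied strands, averaged 0.0318 FPKM at 12 h and 9.10 FPKM at 24 h. Their differences ranged from -6.95 for the B-type cyclin to -5.20 for the B2-type kinase.

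**Figure D1:**
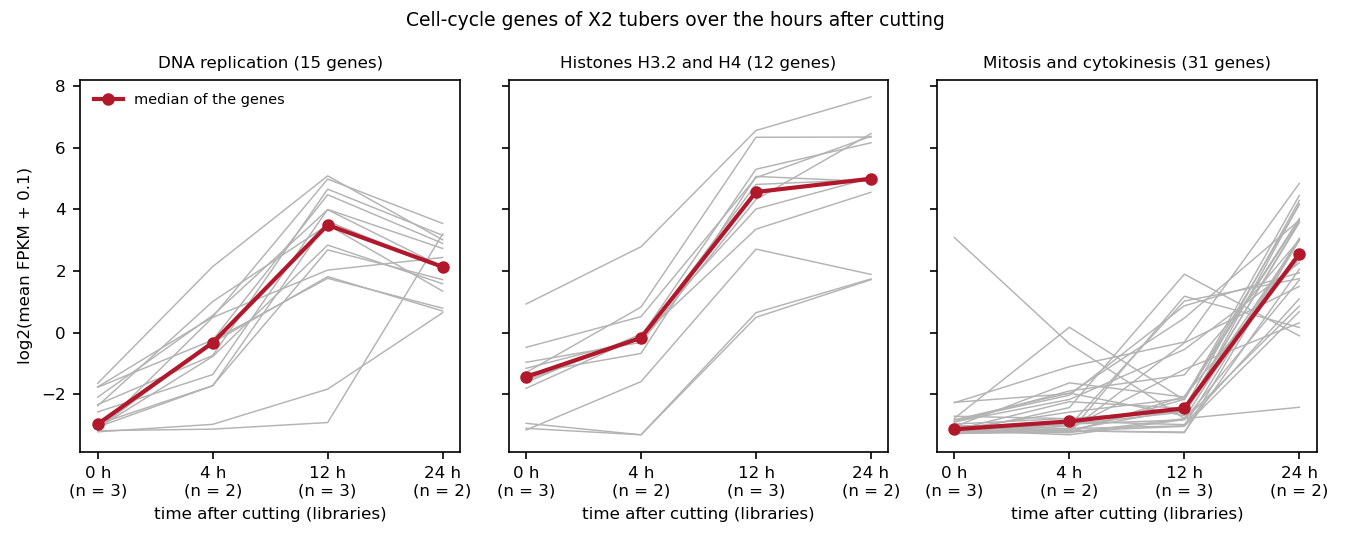
Mean FPKM of each gene (grey lines, log2(mean FPKM + 0.1)) and the median of the genes (red) at each of the 4 sampled hours, for 15 DNA replication genes, 12 histone genes and 31 mitosis and cytokinesis genes of X2. The replication and histone medians stand high at 12 h, whereas the mitosis median is still near its 0 h level at 12 h and high at 24 h. Of the 31 mitosis genes, 21 passed a filter only with the other hours, each with its highest mean at 24 h. The height of the mitosis median at 24 h was therefore largely fixed by the choice of genes.

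Flavonoid synthesis had the highest summed FPKM at 12 h of the gene lists described here. Of 7 genes that the study lists under this pathway, 6 were tested and all 6 were called higher, beside 36.6% of all genes. Their median log2FC was 7.30 (6.87 with size factors). The summed FPKM of the list was 2291 to 2750 at 12 h, against 11.6 to 25.0 at 0 h. The list was chosen by the study on these samples. Chalcone synthase 2 (PGSC0003DMG400019110), which makes the first committed step, had 905, 793 and 775 FPKM in the 12 h libraries, against 8.02, 3.498 and 3.197 FPKM in the 0 h libraries. Chalcone synthase 1B (PGSC0003DMG400029620), a close copy with which reads could be shared, had 639.8, 501 and 499 FPKM in the 12 h libraries, against 5.46, 2.24 and 2.83 FPKM in the 0 h libraries. Both were high in all 12 h libraries, with a log2FC of 7.49 and 7.33 (standard errors 0.32 and 0.30, limma adjusted p = 7.73e-07 and 6.75e-07).

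The enzymes that act after chalcone synthase were also low at 0 h and high at 12 h. Chalcone isomerase (PGSC0003DMG400011655), which closes the flavanone ring and lies outside the pathway list, had 392, 275 and 292 FPKM in the 12 h libraries, against 2.66, 1.02 and 1.46 FPKM in the 0 h libraries. Flavanone 3 beta-hydroxylase (PGSC0003DMG400003563) averaged 422 ± 26.9 FPKM at 12 h and 2.71 ± 1.03 FPKM at 0 h, and the flavonoid 3'-monooxygenase PGSC0003DMG400024643, which adds a hydroxyl group to the B ring, averaged 306 ± 61.6 FPKM at 12 h and 2.53 ± 0.8202 FPKM at 0 h. Flavonol synthase (PGSC0003DMG400014093), the step into flavonols, had 377, 326 and 367 FPKM in the 12 h libraries, against 4.04, 1.83 and 1.35 FPKM in the 0 h libraries. The log2FC of these 4 genes lay between 6.89 and 7.54, and none of their libraries overlapped between groups. Replicate 1 of 0 h held the highest 0 h value of each of the chalcone and flavonol genes given by library here. The remaining tested member, an elicitor-inducible cytochrome P450 (PGSC0003DMG400013684), averaged 2.005 ± 0.874 FPKM at 12 h and 0.0631 ± 0.0839 FPKM at 0 h (log2FC 3.72, standard error 0.44, limma adjusted p = 0.000115). Another chalcone synthase 1B gene, PGSC0003DMG400029621, was under the filter, with 64 reads at 12 h and 1 read at 0 h.

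Myb 12 (PGSC0003DMG400004371), whose Arabidopsis counterpart activates flavonol genes, had 20.5, 14.7 and 15.03 FPKM in the 12 h libraries, against 0.06203, 0.0147 and 0.0175 FPKM in the 0 h libraries. It was nearly silent in each 0 h library, and its log2FC was 7.005 (standard error 0.22, limma adjusted p = 2.98e-07). Of the 6 flavonoid genes tested, 5 were higher at 12 h than at 4 h (median difference 3.72), beside 12.8% of all genes. None of the 6 was called different between 12 h and 24 h (median -0.13). The comparison with 24 h rests on 2 libraries there, and a missed call does not show equal levels. For phenylalanine ammonia-lyase, the entry enzyme of the phenylpropanoids, all 10 genes were called higher at 12 h than at 0 h, beside 36.6% of all genes. Their median log2FC was 2.67. Of these, 2 were higher at 12 h than at 4 h, 0 were lower, and none was called different from 24 h. The study reported its listed phenylalanine ammonia-lyase, polyphenol oxidase and peroxidase genes as changed after cutting in these samples. Counts in these 3 lists are therefore not independent evidence of a direction.

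Polyphenol oxidases, which oxidise phenolics to the quinones of browning, counted 6 genes. Of these, 4 were tested and 4 called higher, beside 36.6% of all genes (median log2FC 4.18, and 3.76 with size factors). Catechol oxidase B (PGSC0003DMG400029575), of this class, had 124, 148 and 152 FPKM in the 12 h libraries, against 11.9, 4.49 and 11.2 FPKM in the 0 h libraries. It held most of the list's FPKM, with a log2FC of 4.04 (standard error 0.34, limma adjusted p = 1.88e-05). The polyphenol oxidase PGSC0003DMG400029576 had 12.2, 15.3 and 16.7 FPKM in the 12 h libraries, against 6.27, 1.32 and 2.204 FPKM in the 0 h libraries, with the smallest log2FC of the 4 at 2.42 (standard error 0.49, limma adjusted p = 0.00234). Catechol oxidase B was higher at 12 h than at 4 h and lower at 12 h than at 24 h, with means of 141 FPKM at 12 h, 30.5 FPKM at 4 h and 448 FPKM at 24 h. The other 3 tested genes were called different from neither hour. These genes are close copies and may have shared reads.

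Genes grouped here under suberin and lipid polymers were mostly higher at 12 h, at low to moderate levels. The group holds 8 genes, described for instance as acyl CoA reductase, sterol desaturase, lipid binding protein or ABC transporter. No description names suberin or cuticle, and the study lists only the acyl CoA reductase and the sterol desaturases under cutin, suberin and wax synthesis. Of the 8 genes, 6 were tested and 6 called higher, beside 36.6% of all genes. Their median log2FC was 6.08 (5.75 with size factors). The acyl CoA reductase PGSC0003DMG400007405, of a class that makes the fatty alcohols of suberin, had 26.1, 9.67 and 6.76 FPKM in the 12 h libraries, against 0, 0.04898 and 0.205 FPKM in the 0 h libraries. Its 12 h libraries differed among themselves by more than most genes, and all lay above the 0 h libraries (log2FC 6.19, standard error 0.57, limma adjusted p = 2.94e-05). With limma-voom on the recovered reads its call was lost (log2FC of PGSC0003DMG400007405 8.17, limma-voom adjusted p = 0.0216). UPF0497 membrane protein 8 (PGSC0003DMG400026944), of a family that includes the Casparian strip proteins, had 48.5, 38.7 and 42.4 FPKM in the 12 h libraries, against 0.699, 0.439 and 0.342 FPKM in the 0 h libraries. Sterol desaturase PGSC0003DMG402023841, listed under cutin, suberin and wax synthesis, averaged 16.8 ± 6.07 FPKM at 12 h and 0.124 ± 0.0503 FPKM at 0 h. Of 41 peroxidase genes, a class that couples phenolics in walls, 29 were tested. Of those, 24 were higher and 2 lower (82.8% and 6.9%, beside 36.6% and 17.5% of all genes). Class III peroxidase PGSC0003DMG400026575 averaged 14.2 ± 3.73 FPKM at 12 h and 0.0882 ± 0.104 FPKM at 0 h and had the largest log2FC of them, 6.37 (standard error 0.40, limma adjusted p = 4.02e-06).

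Cell wall proteins and enzymes were mostly higher, and 1 gene each among the pectin and the glucan enzymes was lower. Of 15 genes for extensins and related wall proteins, 10 were tested and 10 called higher, beside 36.6% of all genes. Their median log2FC was 4.79 (4.50 with size factors). The extensin gene PGSC0003DMG400000794, a hydroxyproline-rich protein that is crosslinked into the wall, had 787, 602 and 623 FPKM in the 12 h libraries, against 9.88, 6.43 and 3.75 FPKM in the 0 h libraries. It held most of the list's summed FPKM, which was 745 to 975 at 12 h and 6.74 to 14.6 at 0 h. Extensin PGSC0003DMG400000783 had 119, 86.5 and 108 FPKM in the 12 h libraries, against 2.66, 1.54 and 1.73 FPKM in the 0 h libraries. Both rose, with a log2FC of 6.72 and 5.68 (standard errors 0.31 and 0.21, limma adjusted p = 1.08e-06 and 4.82e-07), and extensin repeats are alike enough that reads may have been shared between copies.

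Pectin enzymes, which trim or demethylate the gel between cellulose fibres, counted 13 genes, of which 12 were tested. Of those, 11 were called higher and 1 lower, beside 36.6% and 17.5% of all genes (median log2FC of the list 4.97). Polygalacturonase QRT3 (PGSC0003DMG400009418), known in Arabidopsis from the separation of pollen, had 46.7, 27.5 and 23.7 FPKM in the 12 h libraries, against 0.114, 0.182 and 0.362 FPKM in the 0 h libraries. Pectate lyase P18 (PGSC0003DMG400012640) averaged 41.1 ± 3.95 FPKM at 12 h and 0.693 ± 0.654 FPKM at 0 h, and a pectinesterase (PGSC0003DMG400031816) averaged 14.7 ± 5.39 FPKM at 12 h and 0.0766 ± 0.0338 FPKM at 0 h. The gene called lower, PGSC0003DMG400027019, described as the non-catalytic subunit beta of polygalacturonase-1, had 3 reads at 12 h and 434 at 0 h, a read ratio of 0.00621 (95% counting interval 0.00128 to 0.0183).

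Expansins, which loosen walls, and glucan enzymes counted 15 genes. Of these, 9 were tested, 8 called higher and 1 lower, beside 36.6% and 17.5% of all genes. With size factors 8 were tested, 7 higher and 1 lower. Expansin PGSC0003DMG400023815 had 56.9, 55.5 and 63.5 FPKM in the 12 h libraries, against 0.892, 0.7402 and 0.713 FPKM in the 0 h libraries, and endo-beta-1,4-D-glucanase PGSC0003DMG400012288 averaged 48.1 ± 2.19 FPKM at 12 h and 0.606 ± 0.202 FPKM at 0 h. Their log2FC was 6.06 and 6.13 (standard errors 0.11 and 0.19, limma adjusted p = 1.07e-07 and 2.85e-07). The gene called lower was xyloglucan endo-transglycosylase PGSC0003DMG400021877, which cuts and rejoins the xyloglucan tethers of the wall. This gene had 0.835, 0.924 and 0.871 FPKM in the 12 h libraries, against 134, 155 and 115 FPKM in the 0 h libraries. Its libraries agreed closely within each group, and the log2FC was -7.10 (standard error 0.12, limma adjusted p = 1.05e-07).

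Defence proteins that passed the filter were higher at 12 h. Of 18 genes, 13 passed and 13 were called higher, beside 36.6% of all genes. Their median log2FC was 3.96 (3.62 with size factors). PAR-1b protein (PGSC0003DMG400030006), of a family named in tobacco, had 55.4, 53.5 and 67.9 FPKM in the 12 h libraries, against 1.57, 1.24 and 0.649 FPKM in the 0 h libraries. A class II chitinase (PGSC0003DMG400001528), which cleaves the chitin of fungal walls, averaged 14.5 ± 2.35 FPKM at 12 h and 0.341 ± 0.199 FPKM at 0 h. The wound/stress protein PGSC0003DMG400013983 averaged 46.5 ± 3.51 FPKM at 12 h and 1.35 ± 1.04 FPKM at 0 h, with a log2FC of 5.23 (standard error 0.42, limma adjusted p = 1.31e-05). One member under the filter, chitinase 1 PGSC0003DMG400025352, named after its values were seen, had a mean of 0.021 FPKM at 12 h and 0.968 FPKM at 0 h, and it was called lower with size factors, with no filter and without any one of the 12 h libraries. Of the 13 genes, 11 were higher at 12 h than at 4 h (median difference 2.22) and 11 were lower at 12 h than at 24 h (median -2.01). Over all genes, 12.8% were higher at 12 h than at 4 h and 6.78% lower than at 24 h.

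Hormone-related genes gave smaller groups. Of 5 genes that the study lists under zeatin synthesis, 4 were tested and 4 called higher, beside 36.6% of all genes (median log2FC of the list 5.87). They are glycosyltransferases, a class of which some members attach sugars to cytokinins, and glucosyltransferase PGSC0003DMG402027210 had 85.9, 78.7 and 98.8 FPKM in the 12 h libraries, against 1.101, 0.413 and 0.739 FPKM in the 0 h libraries. It separated fully between groups (log2FC 6.77, standard error 0.28, limma adjusted p = 7.43e-07). The fifth, cytokinin oxidase/dehydrogenase 2 (PGSC0003DMG400000277), which degrades cytokinins, was under the filter with a mean of 0.373 FPKM at 12 h and 0.00596 FPKM at 0 h. An indole-3-acetic acid-amido synthetase (PGSC0003DMG400019274), which conjugates auxin to amino acids, averaged 11.1 ± 5.34 FPKM at 12 h and 0.0848 ± 0.0424 FPKM at 0 h (log2FC 5.85, standard error 0.35, limma adjusted p = 3.05e-06). Of 3 gibberellin genes that the study lists under diterpenoid synthesis, 2 were tested and 2 called higher (log2FC 3.41 and 4.02). Gibberellin 2-oxidase PGSC0003DMG400027645, which inactivates gibberellins, averaged 1.89 ± 0.315 FPKM at 12 h and 0.0261 ± 0.0452 FPKM at 0 h, on 189 reads at 12 h and 2 reads at 0 h. The other gene called higher was ent-kaurenoic acid oxidase (PGSC0003DMG400001823), which acts in gibberellin synthesis. Another gibberellin 2-oxidase (PGSC0003DMG400009021) was under the filter, with a mean of 0.499 FPKM at 12 h.

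**Figure D2:**
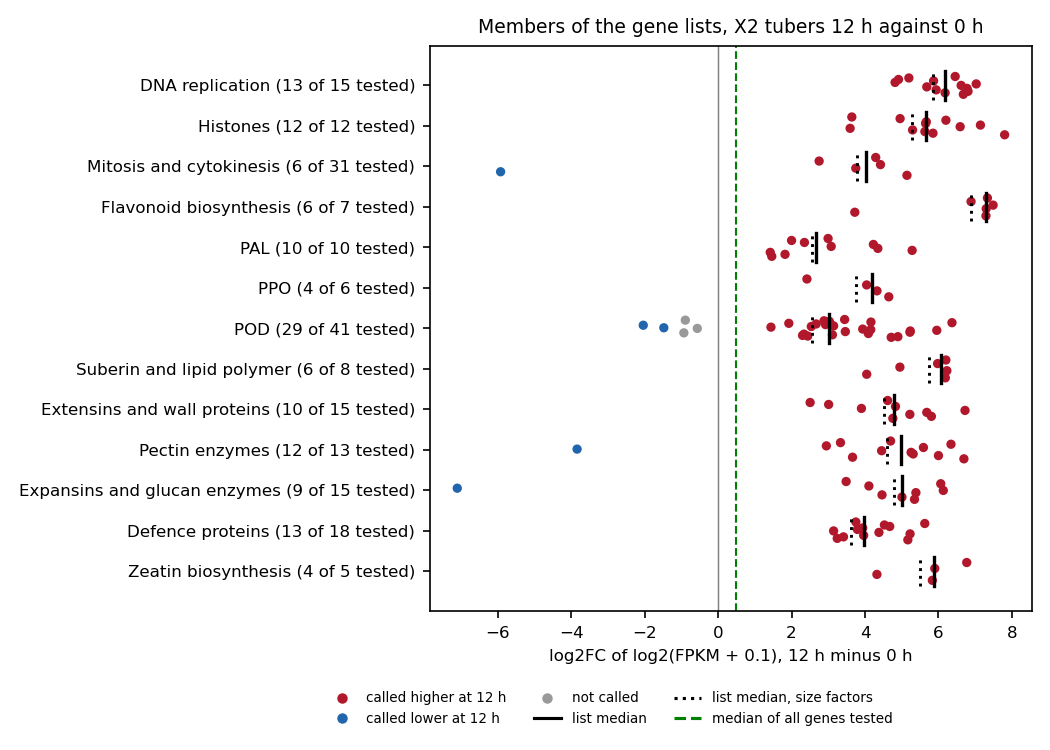
Log2FC (12 h minus 0 h, on log2(FPKM + 0.1)) of each tested gene in 13 lists of X2 tubers, coloured by call, with the median of each list as deposited (solid) and with size factors (dotted) and the median of all genes tested (dashed green, 0.47). PAL, PPO and POD are phenylalanine ammonia-lyase, polyphenol oxidase and peroxidase. Nearly all points lie right of the dashed line, with single genes far to the left among the glucan enzymes, the pectin enzymes and the mitosis genes.

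Transcription factor families held calls in both directions. Their counts stand beside 36.6% of all genes called higher and 17.5% lower, and differences between families were not tested. The families hold factors that the study listed among its own DEGs of these samples, so their counts are not independent evidence. WRKY factors, known from defence and wounding, had 36 of 45 genes tested, of which 24 were higher and 3 lower (21 higher and 6 lower of 35 with size factors). WRKY PGSC0003DMG400009703 had 21.03, 22.9 and 26.1 FPKM in the 12 h libraries, against 0.476, 0.196 and 0.247 FPKM in the 0 h libraries, a log2FC of 5.90 (standard error 0.25, limma adjusted p = 7.73e-07). AP2-EREBP factors, which include the ethylene response factors, had 54 of 81 tested, 30 higher and 10 lower (55.6% and 18.5%). Tify factors, which include the repressors of jasmonate signalling, had 7 of 11 tested, 5 higher and 0 lower. LOB factors, plant-specific regulators named for organ boundaries, had 10 of 15 tested, 8 higher and 0 lower, and LOB PGSC0003DMG400025400 had 18.95, 20.9 and 23.6 FPKM in the 12 h libraries, against 0.942, 0.182 and 0.0242 FPKM in the 0 h libraries.

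MYB factors had 28 higher and 26 lower of 69 tested out of 83 (23 and 32 of 68 with size factors). The share called higher, 40.6%, was near that of all genes, whereas the share called lower, 37.7%, stood above the 17.5% of all genes. The family was drawn from DEGs of these samples, a choice that by itself favours high shares of calls. Besides Myb 12, PGSC0003DMG400028119 averaged 23.5 ± 2.099 FPKM at 12 h and 0.467 ± 0.305 FPKM at 0 h, whereas Myb RL3 (PGSC0003DMG400028098) averaged 0.0351 ± 0.03104 FPKM at 12 h and 2.94 ± 1.32 FPKM at 0 h, on 2 reads at 12 h and 155 reads at 0 h. C3H zinc finger factors leaned lower, with 9 higher and 18 lower of 47 tested out of 48, and 3 higher and 24 lower with size factors. C3H factor Novel02087 (chromosome 4, 11378333 to 11389536, plus strand) had 51.4, 55.8 and 48.8 FPKM in the 12 h libraries, against 481, 529.95 and 543 FPKM in the 0 h libraries. Its level at 12 h was below that of every 0 h library, with a log2FC of -3.31 (standard error 0.08, limma adjusted p = 1.9e-07). Among bZIP factors 8 were higher and 11 lower of 34 tested out of 39, and Novel03175 (chromosome 8, 30353516 to 30367638, plus strand) averaged 44.6 ± 2.29 FPKM at 12 h and 339 ± 4.45 FPKM at 0 h. CCAAT factors, subunits of a promoter-binding complex, had 6 higher and 10 lower of 33 tested out of 35. One of them, PGSC0003DMG400013436, rose far beyond the others, with 206, 244 and 275 FPKM in the 12 h libraries, against 3.59, 2.35 and 1.99 FPKM in the 0 h libraries (log2FC 6.49, standard error 0.21, limma adjusted p = 3.38e-07).

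Heat shock factors, the activators of chaperone genes, had 19 of 20 genes tested, 7 higher and 7 lower (6 and 10 with size factors). The share called higher, 36.8%, was that of all genes within 1 percentage point, whereas the share called lower, also 36.8%, stood above the 17.5% of all genes. This family too was drawn from DEGs of these samples, which favours high shares of calls. Heat shock factor PGSC0003DMG400014323 had 29.2, 31.7 and 25.96 FPKM in the 12 h libraries, against 393, 471 and 484 FPKM in the 0 h libraries. PGSC0003DMG400004662 had 8.14, 8.37 and 8.55 FPKM in the 12 h libraries, against 222, 193 and 197 FPKM in the 0 h libraries. These fell at 12 h, with a log2FC of -3.95 and -4.59 (standard errors 0.11 and 0.07, limma adjusted p = 2.26e-07 and 1.05e-07). PGSC0003DMG400027283 of the same family rose, with 25.8, 30.6 and 38.4 FPKM in the 12 h libraries, against 3.099, 1.32 and 0.948 FPKM in the 0 h libraries (log2FC 4.22, standard error 0.39, limma adjusted p = 2.75e-05). The one heat shock protein with a description, hsp70 PGSC0003DMG400011197, a chaperone that holds unfolded proteins, had 4.22, 3.45 and 2.83 FPKM in the 12 h libraries, against 57.4, 83.9 and 65.2 FPKM in the 0 h libraries. It fell to a mean of 3.50 FPKM at 12 h, against 68.8 FPKM at 0 h (log2FC -4.26, standard error 0.18, limma adjusted p = 7.69e-07).

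Among the largest losses with a description, a putative bHLH transcription factor (PGSC0003DMG401020927) had 0.0168, 0.1097 and 0 FPKM in the 12 h libraries, against 29.7, 25.8 and 21.1 FPKM in the 0 h libraries. It was near the detection limit in all 12 h libraries, with 7 reads there and 3590 reads at 0 h (log2FC -7.56, standard error 0.29, limma adjusted p = 5.93e-07). The auxin-repressed protein PGSC0003DMG400004897, of a family also found in dormant buds, had 0.621, 0.322 and 0.244 FPKM in the 12 h libraries, against 40.6, 68.6 and 46.8 FPKM in the 0 h libraries. F-box-containing protein 1 (PGSC0003DMG400030688), of a family that selects proteins for degradation, had 5.704, 3.59 and 2.58 FPKM in the 12 h libraries, against 189, 247 and 259.7 FPKM in the 0 h libraries. Cytochrome P450 71A1-like Novel03642 (chromosome 9, 60037954 to 60039153, minus strand) averaged 0.0629 ± 0.0553 FPKM at 12 h and 19.2 ± 2.33 FPKM at 0 h. These 3 genes also fell, with a log2FC of -6.75, -5.90 and -6.95, and none of their libraries overlapped between groups. Sesquiterpene synthase 2 (PGSC0003DMG400020939), of the enzymes that build terpenes, averaged 0.0184 ± 0.00739 FPKM at 12 h and 3.74 ± 2.39 FPKM at 0 h (log2FC -4.78, standard error 0.50, limma adjusted p = 5.94e-05).

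Patatin-3-Kuras 1 (PGSC0003DMG401017090), of the tuber storage proteins, had 1.64, 0.674 and 0.241 FPKM in the 12 h libraries, against 21.8, 29.1 and 6.02 FPKM in the 0 h libraries. The groups did not overlap, but both varied widely, and the log2FC of -4.35 has a standard error of 0.73 (limma adjusted p = 0.000816). Patatins are a family of near-identical genes, so reads may have been shared. By loss of FPKM, the largest changes were in genes with no description in the tables used. PGSC0003DMG400023400 had 173, 175 and 139 FPKM in the 12 h libraries, against 3179, 3135 and 3289 FPKM in the 0 h libraries, and PGSC0003DMG400003984 had 62.9, 70.8 and 69.2 FPKM in the 12 h libraries, against 2322, 2075 and 2205 FPKM in the 0 h libraries. By gain of FPKM, PGSC0003DMG402001494, also without a description, came first, with 2019, 1946 and 2489 FPKM in the 12 h libraries, against 92.2, 73.4 and 49.2 FPKM in the 0 h libraries.

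**Figure D3:**
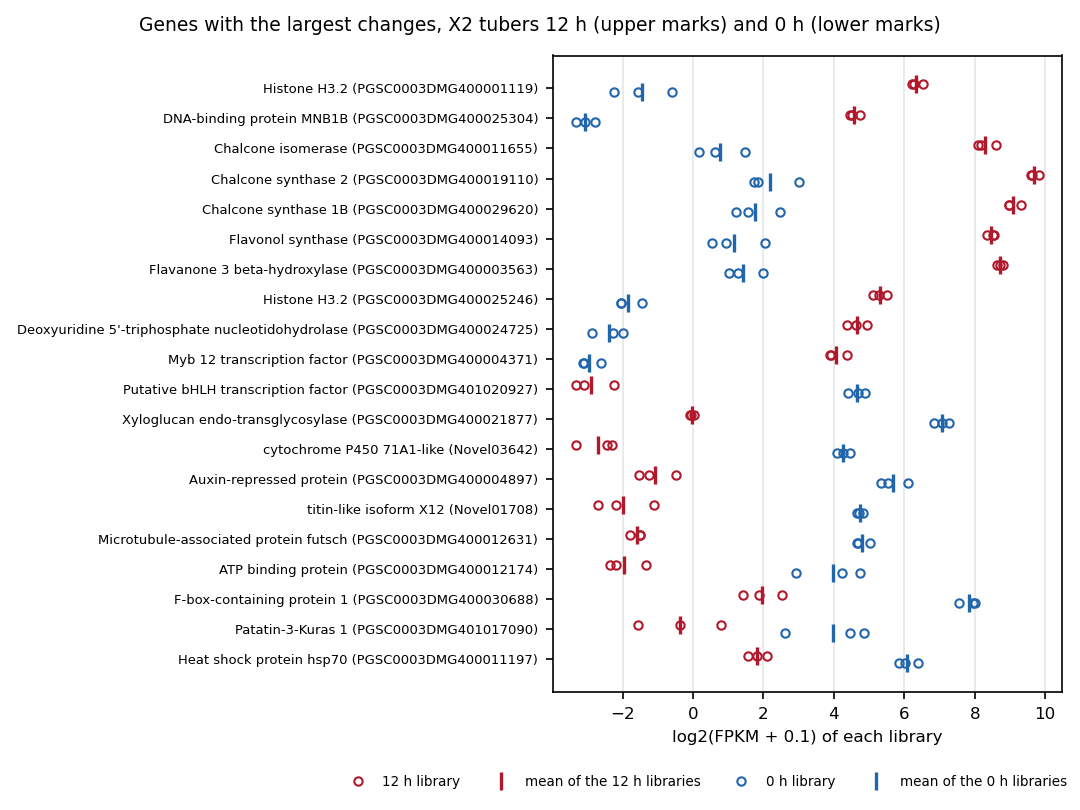
Values of single libraries (circles) and their means (bars) on log2(FPKM + 0.1) for the 10 described genes with the largest increase and the 10 with the largest decrease, X2 tubers at 12 h (red) and 0 h (blue). No gene has overlapping libraries, and the 0 h libraries of patatin and of the ATP binding protein spread most among the decreased genes.

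Markers of the cell types that a block from skin to pith can hold also moved. They were found by description among genes that the study listed, mainly for changes in these samples, so the choice itself favoured movement. The 3 storage parenchyma markers (a patatin and proteinase inhibitors) summed to 1.19 to 2.16 FPKM at 12 h and 6.14 to 30.999 FPKM at 0 h, and of 2 tested 2 were lower. The third, proteinase inhibitor IIa (PGSC0003DMG400030593), was under the filter and ran the other way, with 0.495, 0.657 and 0.948 FPKM in the 12 h libraries, against 0.0325, 0.02305 and 0 FPKM in the 0 h libraries. It had 83 reads at 12 h and 2 at 0 h, a read ratio of 37.3 (95% counting interval 10.008 to 313), and was called higher with no filter and with all X2 libraries in 1 model. So was subtilisin inhibitor 1 (PGSC0003DMG400011009), another proteinase inhibitor under the filter, which the marker descriptions did not take in. The call of one of the markers that fell, proteinase inhibitor CEVI57 (PGSC0003DMG400004548, 2 reads at 12 h and 122 at 0 h), was lost without any one of the 12 h libraries, with a pseudocount of 1 and with limma-voom on the recovered reads, and without replicate 1 or 2 of 0 h it fell under the filter. Of 4 green tissue markers 3 were higher and 1 lower (summed 14.8 to 24.1 FPKM at 12 h and 1.49 to 2.80 FPKM at 0 h). The green marker that fell, photosystem Q(B) protein PGSC0003DMG400017848, averaged 0.0491 ± 0.02998 FPKM at 12 h and 1.45 ± 0.262 FPKM at 0 h. All 3 periderm markers were higher (21.4 to 37.4 FPKM at 12 h, and 1.23 to 2.16 FPKM at 0 h), as was the phloem marker, phloem protein 2 (1.87 to 2.60 FPKM at 12 h, and 0.0965 to 0.326 FPKM at 0 h). The periderm markers are the acyl CoA reductase and suberization-associated peroxidases already counted in the suberin and peroxidase lists, so they are not separate evidence. No marker was at 0 in all libraries. The part of these markers in the results above was not tested, and in such bulk tissue fewer cells of a type and less RNA per cell cannot be told apart.

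The other hours place further groups. Over all genes, 12.8% were higher and 9.07% lower at 12 h than at 4 h. Against 24 h, 4.59% were higher and 6.78% lower at 12 h. Of the extensin and wall protein genes, 9 of 10 were higher at 12 h than at 4 h and 5 of 10 were lower at 12 h than at 24 h. Pectin enzymes had 9 of 11 higher and 1 lower than at 4 h, and 6 lower and 1 higher than at 24 h. The one that ran the other way, a PME inhibitor (PGSC0003DMG400010815, chosen after its values were seen), which blocks pectin demethylation, averaged 13.4 FPKM at 12 h, against 48.7 FPKM at 4 h and 2.87 FPKM at 24 h. Expansins and glucan enzymes had 8 of 9 higher and 1 lower than at 4 h, and 6 of 9 lower and 0 higher than at 24 h. All 4 zeatin-list genes tested were higher at 12 h than at 4 h, and 1 was lower at 12 h than at 24 h.

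Some transcription factor families had more genes lower at 12 h than at 4 h. The study drew these families from its DEGs, and it counted more factors at 4 h than at 12 h or 24 h. That choice favours factors that stood out at 4 h, so the shares of all genes are no even background. For AP2-EREBP, 26 of 53 genes were lower and 4 higher at 12 h than at 4 h, beside 9.07% and 12.8% of all genes. Against 24 h, 14 were higher and 3 lower at 12 h, beside 4.59% and 6.78% of all genes. For WRKY, 11 of 36 were lower and 2 higher at 12 h than at 4 h. The C3H factors had 15 of 47 lower and 2 higher than at 4 h. MYB factors had 10 of 69 lower and 13 higher than at 4 h.

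**Figure D4:**
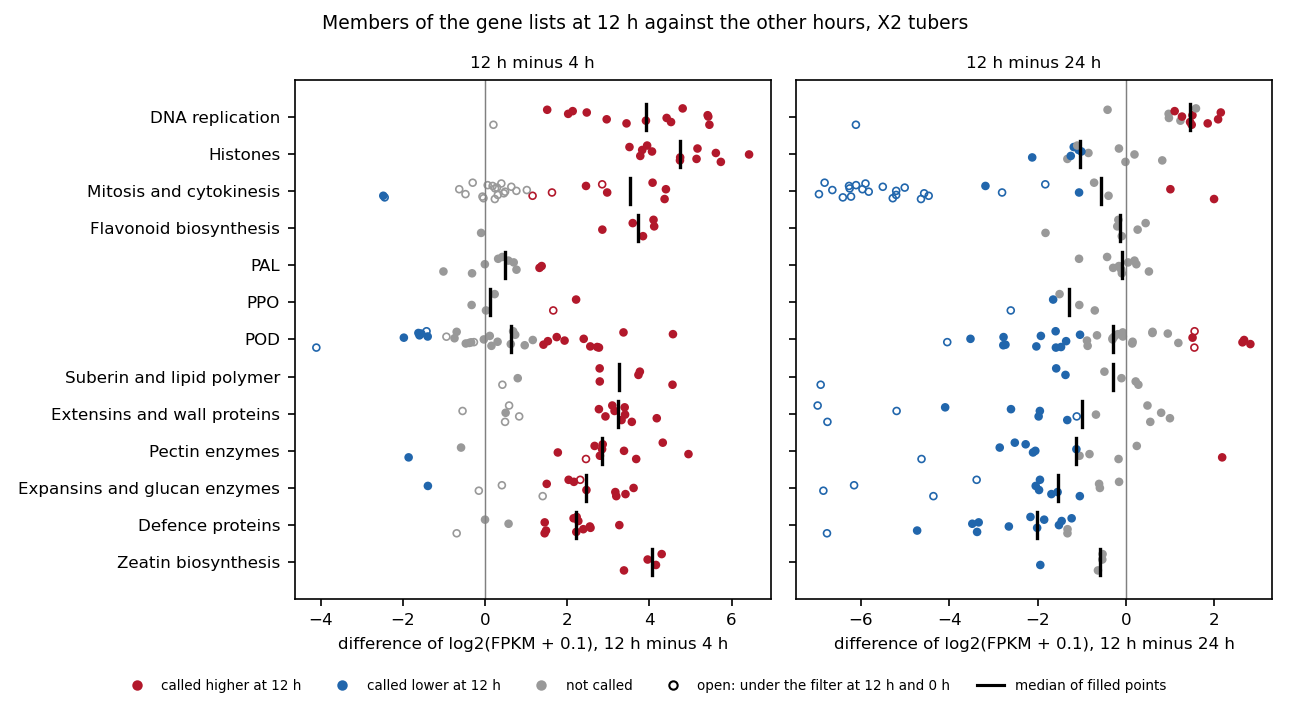
Differences of log2(FPKM + 0.1), 12 h minus 4 h (left) and 12 h minus 24 h (right), for each tested gene of 13 lists in X2, coloured by call, with open circles for genes that passed the filter only through the other hours and the median of the filled points (black). Histone and the filled replication genes lie right of 0 against 4 h, and the far left points against 24 h are mostly open.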

How the data were processed

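RNA was sequenced from X2 tuber blocks, and the 3 libraries of 12 h were compared with the 3 of 0 h. By the study's methods, the authors trimmed reads, mapped them with HISAT to SolTub_3.0, counted them per gene with featureCounts and deposited FPKM, which was used with no further scaling. The submitters' processing notes instead name CASAVA 1.8, Bowtie 0.12.2 and the mouse build mm8, and which account holds for these values was not settled; the gene identifiers are those of potato. The authors called DEGs with DESeq. A second deposited table gives other values, the positions and lengths of genes that the authors predicted. Columns were assigned by name. At 4 h, 2 columns carry one name (replicate 2), so both were left out, and 4 h and 24 h have 2 libraries each. Of 22 columns of per-sample values, 12 were not used. Reads on genes numbered 29746314 to 44921591 per library of the comparison.

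Testing used limma 3.58.1 (R 4.3.3, linear model, eBayes with trend) on log2(FPKM + 0.1), without a block, for genes averaging 0.5 FPKM or more. Calls needed a limma p of 0.01 or less before adjustment and |log2FC| ≥ 1. The adjusted p printed beside a gene is the Benjamini-Hochberg value from all genes in that test. The 12 h against 4 h and 24 h contrasts come from 1 fit of 10 X2 libraries. The test was checked on simulated data. Whole reads were recovered from the FPKM steps in 27334 of 27334 genes above 0 in at least 3 libraries (within 0.05 of a read). Read ratios are per library depth, with exact 95% intervals for counting error only. Intervals came from scipy 1.17.1, tables from pandas 2.3.3 with numpy 2.4.6 in Python 3.11.15, and figures from matplotlib 3.10.9.

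Members, lists and tests were chosen with earlier results of these data known. Named genes are the top 10 described genes by increase in log2FC and the top 10 by decrease (mean FPKM of at least 5, no overlap), the 5 with the largest gain and the 5 with the largest loss of FPKM, per list up to 3 called higher and 2 called lower, all members of lists of at most 7 genes, and marker genes. Descriptions come from the study's tables. Alternatives were size factors, no filter, a mean FPKM of 1, pseudocounts of 1 and 0.01, an adjusted p of 0.05, |log2FC| of 1.5, all X2 libraries in 1 model, a replicate block, limma-voom on recovered reads, and each library left out.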

Additional observations from a re-analysis of the deposited data

Results flagged for a closer look

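The change from 0 h differed between 12 h and 4 h in many genes, by the test of 12 h minus 4 h in which the 0 h libraries cancel. It called 2536 genes higher and 1800 lower at 12 h than at 4 h. Among named genes, 7 were at least 5 log2 units higher at 12 h than at 4 h. These were histone H3.2 PGSC0003DMG400001119 (5.74) and PGSC0003DMG400025246 (5.62), histone H4 PGSC0003DMG400023523 (6.43), the chromatin protein MNB1B PGSC0003DMG400025304 (5.92), the dUTPase PGSC0003DMG400024725 (5.42), origin-recognition complex subunit 6 PGSC0003DMG400003384 (5.46) and the 70 kDa subunit of replication protein A PGSC0003DMG400024634 (5.43).

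The test of 12 h minus 24 h called 910 genes higher and 1346 lower at 12 h than at 24 h. Among the named genes, 3 were lower than 0 h at 12 h and higher than 0 h at 24 h, with a difference between those hours that passed the test. The secretory peroxidase PGSC0003DMG400016453 had a log2 difference of -3.52 (12 h minus 24 h), the WRKY factor PGSC0003DMG400029207 of -2.86 and the GRAS factor PGSC0003DMG400003047 of -4.44.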

How the results depend on the processing

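No named gene reversed. Of 178 called named genes, 14 lost the call under an alternative other than a left-out library, 10 of them with a pseudocount of 1. Without 1 library, 1 lost the call. Genes that fell under a filter are not counted as lost, and at a mean FPKM of 1 or more 159 of the 178 were still tested, all with the same call. The fewest genes were called lower at 12 h with |log2FC| of at least 1.5 (2162, against 3384), and with a pseudocount of 1 the genes higher at 12 h than at 24 h numbered 590, against 910. Other alternatives kept the numbers called within 1.5 times. Leaving out 1 library gave 6790 to 7167 genes higher and 3224 to 3413 lower, and over all lists 322 to 345 higher and 125 to 134 lower. A replicate block gave 7042 higher and 3365 lower. Same-numbered libraries of 12 h and 0 h had correlations of deviations of -0.08, 0.13 and -0.03, so the numbers do not pair them, and the block moved no count of genes called by over 1.5 times, except LOB genes called lower (1, against 0). Mitosis genes called higher numbered 9 with no filter, 2 at a mean FPKM of 1 or more and 8 with all X2 libraries in 1 model, against 5. C3H genes called higher numbered 3 with |log2FC| of at least 1.5, against 9, and AP2-EREBP genes called lower 5, against 10. Peroxidase genes called lower numbered 1 to 5 over the alternatives, against 2. With 2 libraries each at 4 h and 24 h, the contrasts with those hours were not tried with a library left out.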
